A study of Homo sapiens with 40 samples.

Results

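CTCF peaks that lay inside protein-coding genes and away from active chromatin were compared between senescent EndoC-βH3 cells and cells that were not senescent. A peak was included when it lay more than 2 kb from every protein-coding start site, overlapped neither enhancer list nor any H3K27ac peak, and had its centre in a protein-coding gene but in no exon of a canonical transcript (GENCODE 44, hg38). These peaks are called intronic here. They numbered 13556 of 51457 CTCF peaks and were spread over 6182 host genes. Of all CTCF peaks, 40396 lay beyond 2 kb of a start site, 36039 of these were outside the enhancer lists, 32429 were also outside H3K27ac peaks, and 14920 of those had their centre in a protein-coding gene.

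EndoC-βH3 is a single human beta-cell line whose immortalizing transgene, flanked by sites for a tamoxifen-inducible Cre recombinase, can be excised. The senescent group had received 4-hydroxytamoxifen (4-OHT) for 3 weeks and the non-senescent group was the untreated control, so that exposure to 4-OHT, loss of the transgene, arrest and time in culture cannot be told apart. CTCF was immunoprecipitated in 3 libraries of each state, each with its own input library. Nothing in the labels says whether the 3 libraries of a state came from separate cultures, so the p-values measure the spread between these libraries, which may be technical. All 10 beta-cell genes checked (INS, PDX1, NKX6-1, NEUROD1, PAX6, MAFA, SLC30A8, ABCC8, NKX2-2 and ISL1) had an H3K27ac peak within 2 kb of a start site. Its mean normalized count was 43.6 at MAFA and between 2453 and 16247 at the other genes, where the median of all H3K27ac peaks was 119.

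CTCF is a zinc-finger protein that binds a long, directional DNA motif. Cohesin extruding a loop of chromatin is halted where it meets bound CTCF, so pairs of CTCF sites anchor loops and the borders of topological domains. Sites inside introns can act as such anchors, and bound CTCF within a gene has also been tied to the pace of RNA polymerase and to the choice of exons.

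The sequences under 8 changed peaks are shown because each holds an exact match to the core of the CTCF motif. Whether CTCF bound at these matches was not tested. Capitals mark an exact match to the 12-base core, which reads CCA, any 2 bases, AG, any 2 bases and GGC and was searched on both strands, and 14 bases are shown on each side. All are read 5′ to 3′ on the strand of the motif from hg38. The windows of the gained peaks lay at chr15:47711837-47711876 in SEMA6D (plus strand), chr10:67306751-67306790 in CTNNA3 (minus strand), chr16:56789222-56789261 in NUP93 (plus strand) and chr7:36441053-36441092 in ANLN (plus strand).
SEMA6D: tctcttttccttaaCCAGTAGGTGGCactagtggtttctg
CTNNA3: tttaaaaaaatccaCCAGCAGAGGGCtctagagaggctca
NUP93: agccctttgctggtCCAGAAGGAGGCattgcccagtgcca
ANLN: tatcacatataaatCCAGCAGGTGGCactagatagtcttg
The windows of the lost peaks lay at chr7:32347426-32347465 in PDE1C, chr12:99620043-99620082 in ANKS1B and chr17:309635-309674 in RPH3AL (all on the minus strand) and at chr9:114339262-114339301 in AKNA (plus strand).
PDE1C: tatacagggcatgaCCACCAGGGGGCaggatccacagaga
ANKS1B: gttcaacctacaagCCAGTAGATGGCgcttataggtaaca
RPH3AL: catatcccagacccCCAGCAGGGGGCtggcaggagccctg
AKNA: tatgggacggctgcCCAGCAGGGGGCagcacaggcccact
The same core, letter for letter, stood under the lost RPH3AL and AKNA peaks. The core lay on the strand of the host gene in all of these peaks except AKNA. Its distance from the peak centre was -364 bp in NUP93, -213 bp in ANLN and -120 bp in CTNNA3, and within 39 bp in the others.

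An exact core was present in 3514 intronic peaks (25.9%, 95% Wilson interval 25.2% to 26.7%) and in 2.50% of regions of the same widths shifted by 10 kb. It was found in 26.9% of intergenic peaks outside active chromatin, in 27.6% of exonic ones and in 17.3% of promoter peaks. Of the 35116 RefSeq promoters of 300 bases, 2.41% held it. These are shorter than the peaks (median 833 bp in intronic and 872 bp in promoter peaks), so the shares are not directly comparable. Since few bound sites match every letter of a core, a 20-base matrix was also built from CTCF peaks outside the intronic class, with its threshold set so that 5% of the shifted regions passed. By this measure 9031 intronic peaks (66.6%, 65.8% to 67.4%) held a motif, and in 74.5% of them it lay within 100 bp of the peak centre. The share rose with peak height, from 40.3% in the lowest of 4 equal groups by mean count to 89.6% in the highest. Shifted regions of the same peaks, which were wider in the higher groups, passed in 2.01% and 10.1%. In peaks inside a single protein-coding gene, the matrix motif lay on the gene's strand in 49.3% (48.2% to 50.3%). The exact core did so in 47.1% (45.4% to 48.7%), slightly more often on the opposite strand. These intervals and those below cover counting error only.

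**Figure D1:**
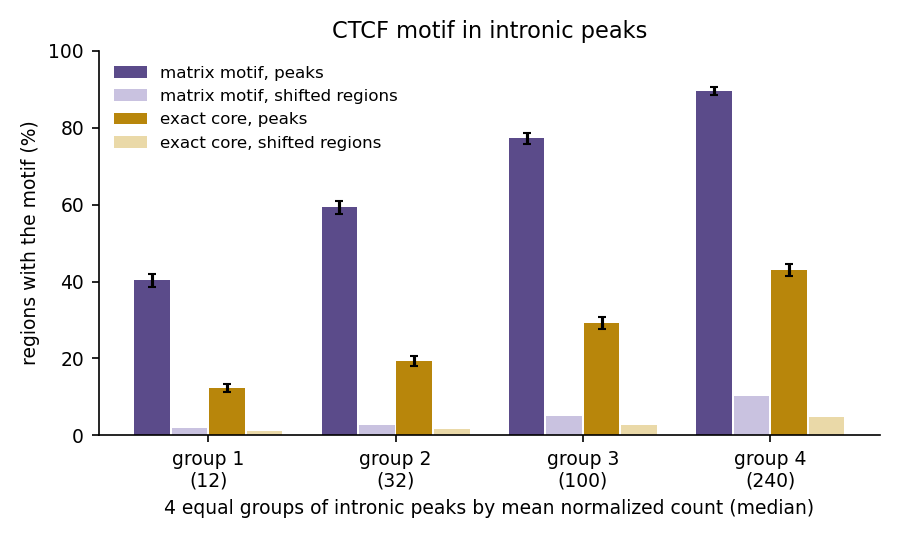
Percentage of intronic CTCF peaks, and of regions of the same widths shifted by 10 kb, that held the 20-base matrix motif or the exact core, in 4 equal groups by mean normalized count (median of each group in parentheses), with 95% Wilson intervals on the peaks. The matrix motif was found in 40.3% of the lowest group and 89.6% of the highest, and the exact core in 12.2% and 43.0%.

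The deposited table gives for each peak the mean normalized count over the 6 libraries, the log2 fold change of senescent over non-senescent cells and its standard error, and it holds no value for a single library. The median intronic peak was 833 bp wide and had a mean normalized count of 56.0 with a standard error of 0.30 on the log2 scale. A size-factor normalization sets the typical peak to no change, so only changes relative to it are seen, and a change in the fraction of cells bound cannot be told apart from a change in every cell. Of the 13556 peaks, 10237 had a deposited adjusted p. The other 3319 all fell in the lowest of the 4 groups by mean count, in which the median count was 11.6, and could not be called.

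CTCF binding was gained in senescent cells at 383 intronic peaks and lost at 291 (deposited adjusted p under 0.2 and fold change above 1.5, the thresholds of the study). Gains were 3.74% of the peaks tested (3.39% to 4.13%), where 2.99% of all CTCF peaks tested were gained, and losses were 2.84% (2.54% to 3.18%), where 4.28% of all were lost. Together 674 of 10237 were called, where 7.27% of all peaks tested were. Gains were thus 56.8% of the changed intronic peaks (53.1% to 60.5%) and 41.1% of the changed peaks of the whole table. At an adjusted p under 0.05, 135 were gained and 76 lost, or 211 of 10237. Of all peaks tested, 1.18% were gained, 1.54% were lost and 2.72% passed either way at that threshold. The median log2 fold change was 0.068 (quartiles -0.23 and 0.30) in intronic peaks and -0.012 over all CTCF peaks, and it was positive in 57.4% of intronic and 48.8% of all peaks.

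The other classes of CTCF peak had different balances. Intergenic peaks outside active chromatin gained 592 and lost 642, exonic peaks gained 25 and lost 65, and promoter peaks gained 54 and lost 489. Gains made up 48.0% of changed intergenic peaks, 27.8% of changed exonic peaks, 36.0% in listed enhancers, 40.8% in unlisted H3K27ac peaks and 9.94% at promoters. Intronic peaks were the only class of the 6 with more gains than losses at these thresholds. Intergenic peaks were nevertheless gained more often, at 4.36% of those tested (4.03% to 4.71%) against 3.74% of intronic ones. Their losses were 4.72% against 2.84%, and their median log2 fold change was 0.056 against 0.068. Losses exceeded gains among intronic peaks too at a fold change above 2, with 116 lost and 59 gained, where the whole table lost 702 and gained 183. The difference between classes was not tested, since peaks are not replicates. Base composition moved with it. The median GC content was 42.6% in intronic, 43.4% in intergenic, 49.4% in exonic and 59.2% in promoter peaks.

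**Figure D2:**
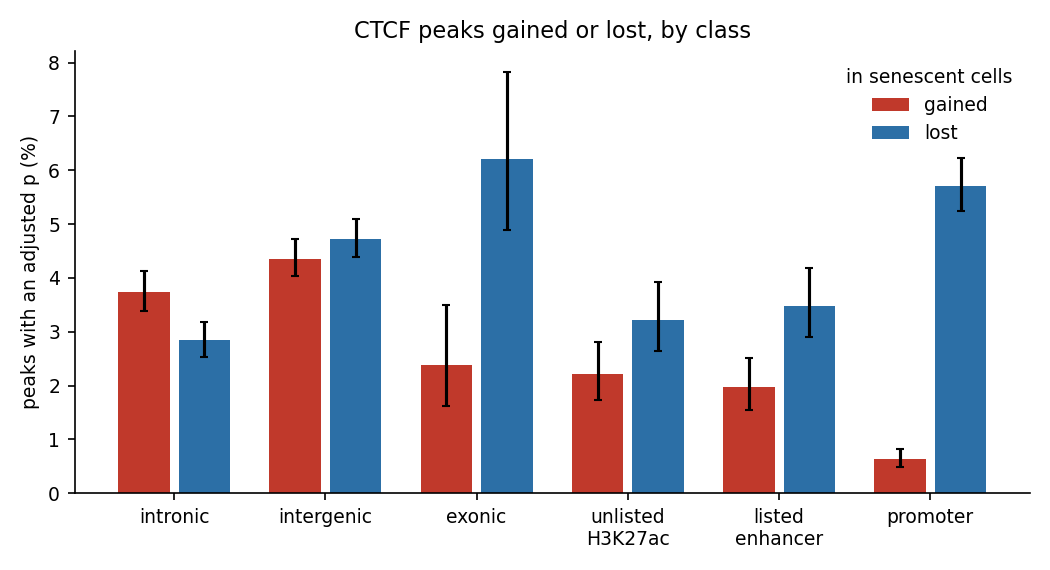
Percentage of CTCF peaks with an adjusted p that were gained or lost in senescent cells, by class of peak, with 95% Wilson intervals. In intronic peaks 3.74% were gained and 2.84% lost, and at promoters 0.630% were gained and 5.71% lost.

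Among the called intronic peaks the direction of change followed GC content. Gained peaks had a median GC content of 37.7% and lost peaks of 50.0%. In the decile of intronic peaks with the lowest GC content 83 peaks were gained and 4 lost, and in the decile with the highest 4 were gained and 79 lost. The median log2 fold change was 0.21 and -0.20 in these deciles. The 169 peaks with less than 25% GC, all in the lowest decile, went the other way. Their median log2 fold change was -2.40 with a median standard error of 1.93, and 0 of the 129 tested were called. Across the 13556 peaks, which share libraries and depth, Spearman's rho between GC content and log2 fold change was -0.29 (Pearson's r -0.0078), and rho was -0.42 over the 7112 peaks with a mean count of at least 50. At equal GC content the medians of the classes lay closer together. Between 40% and 50% GC, 111 intronic peaks were gained and 111 lost, against 223 and 281 intergenic and 14 and 41 promoter peaks. The losses were 2.70% of tested intronic, 4.73% of intergenic and 2.93% of promoter peaks. In this band the median log2 fold change was 0.047 in intronic, 0.057 in intergenic and -0.016 in promoter peaks. Below 40% GC the medians were 0.20 in intronic and in intergenic peaks. With the GC trend of all CTCF peaks subtracted, 124 intronic peaks were gained and 184 lost, so that gains fell from 56.8% to 40.3% of the changed peaks, and the median log2 fold change was -0.0018. After that subtraction 1.23% of all peaks tested were gained and 2.21% were lost, 3.44% together. Gains were then 46.2% of changed peaks in listed enhancers, 45.5% in unlisted H3K27ac peaks and 41.5% in exonic peaks. They were 32.4% at promoters and 31.9% in intergenic peaks, so losses outnumbered gains in every class and intronic peaks no longer stood apart. The part of GC content in the changes was not tested further.

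**Figure D3:**
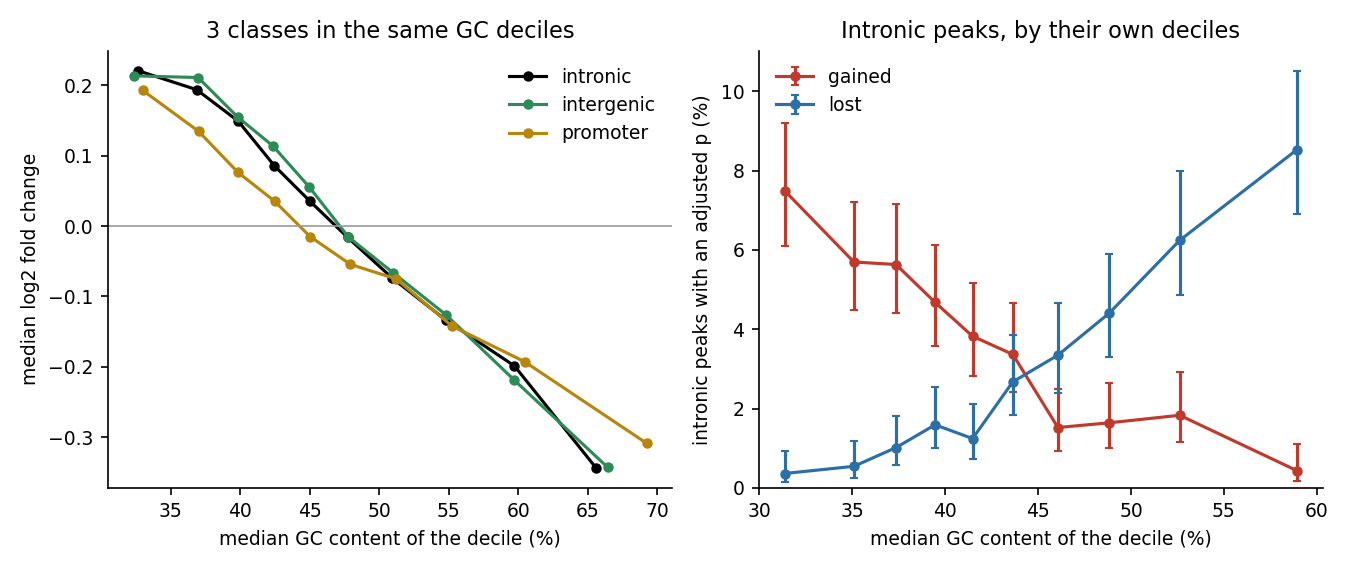
Left, median log2 fold change (senescent over non-senescent) of intronic, intergenic and promoter CTCF peaks in deciles of GC content of the whole table, against the median GC content of each decile. Right, percentage of intronic peaks gained and lost, with 95% Wilson intervals, in deciles of their own GC content, where gains ran from 7.50% to 0.432% and losses from 0.361% to 8.53%.

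Peak height also separated gains from losses. The median mean count was 80.1 in gained and 41.3 in lost peaks, and the median width was 1123 and 641 bp. Of the 4 groups by mean count, 109 peaks were gained and 195 lost in the one above the lowest, 235 and 88 in the next, and 37 and 8 in the highest. Among peaks with a mean count of at least 50, which are measured with less error, 293 were gained and 115 lost, and 924 and 860 in the whole table. At this count 93 intronic peaks were gained and 78 lost with the GC trend subtracted. The matrix motif was present in 72.8% of gained peaks, 73.5% of lost peaks and 75.4% of the 9563 peaks with an adjusted p that were not called. In peaks that held it, 279 were gained and 214 lost.

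The 10 largest gains among called peaks with a mean count of at least 50 had fold changes between 2.12 and 2.93. The largest was in intron 6 of NRG1, which encodes the neuregulin ligands of ErbB receptors (chromosome 8, 32736090 to 32736946), with a deposited log2 fold change of 1.55 ± 0.36 (SE) and an adjusted p of 0.0029. The next was in CFAP20DC (1.35 ± 0.32). The mean counts of the NRG1 and CFAP20DC peaks were 50.7 and 50.1, at the limit of 50, and neither held a matrix motif or an exact core. A peak in intron 3 of WDR62, a spindle-pole protein (chromosome 19, 36060047 to 36061179), reached 1.31 ± 0.25 with an adjusted p of 0.00010, the smallest of the gained peaks, and stayed at 1.44 with the GC trend subtracted. Peaks in RSPO2 (an amplifier of Wnt signals, 1.28 ± 0.29), RIC1 (a Golgi exchange factor for RAB6, 1.23 ± 0.31), the cadherin gene CDH12 (1.20 ± 0.35) and the zinc-finger gene ZNF536 (1.19 ± 0.30) followed, along with that in RNF103-CHMP3, where the peak also lies within CHMP3. SEMA6D, a semaphorin that guides growing axons, held a gained peak 5.14 kb from a start site (1.10 ± 0.29), and CTNNA3, the gene of alpha-T-catenin, held one 126 kb from a start site (1.08 ± 0.24). The CDH12 peak was not called with the GC trend subtracted, and the other 9 remained gained.

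By adjusted p, the NUP93 and NKAIN2 peaks came next to WDR62 among the gains. NUP93 is a scaffold protein of the nuclear pore, and its peak in intron 3 (chromosome 16, 56788949 to 56790262) had a mean count of 122, a log2 fold change of 1.06 ± 0.21 and an adjusted p of 0.00017. NKAIN2 encodes a partner of the sodium pump. Its peak in intron 5 (chromosome 6, 124795448 to 124796883) was taller, at a mean count of 208, with a smaller change of 0.79 ± 0.15 and an adjusted p of 0.00018. With the GC trend subtracted the values were 1.01 and 0.79, and both peaks were still called.

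The strongest loss by adjusted p was in PDE1C, a calcium/calmodulin-dependent phosphodiesterase. The peak (chromosome 7, 32347208 to 32347714) was small, at a mean count of 37.1, and its log2 fold change of -1.89 ± 0.36 had an adjusted p of 0.00010. RPH3AL, an effector of Rab GTPases in granule exocytosis of endocrine cells, lost a peak with 4 exact cores in intron 5 (chromosome 17, 309149 to 310155, -1.24 ± 0.25, adjusted p 0.00037). In ENSG00000269693, an unnamed protein-coding gene, the peak at 12563989 to 12564609 of chromosome 19 changed by -1.26 ± 0.25 with an adjusted p of 0.00033. Losses between 2.00-fold and 2.34-fold were also found in AKNA, ZNF251, COL5A3 (a collagen V chain), OSTM1 (a lysosomal membrane protein), SLAMF1 (an immune-cell receptor), RETREG1 (a receptor for autophagy of the endoplasmic reticulum) and NFKB1 (a subunit of NF-κB), with log2 fold changes from -1.23 to -0.998. All of these stayed lost with the GC trend subtracted. TBL1X, a corepressor subunit, had the largest loss at a mean count of at least 50, -1.43, but a standard error of 0.63 at a mean count of 118 and an adjusted p of 0.19, and it was not called with the trend subtracted.

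**Figure D4:**
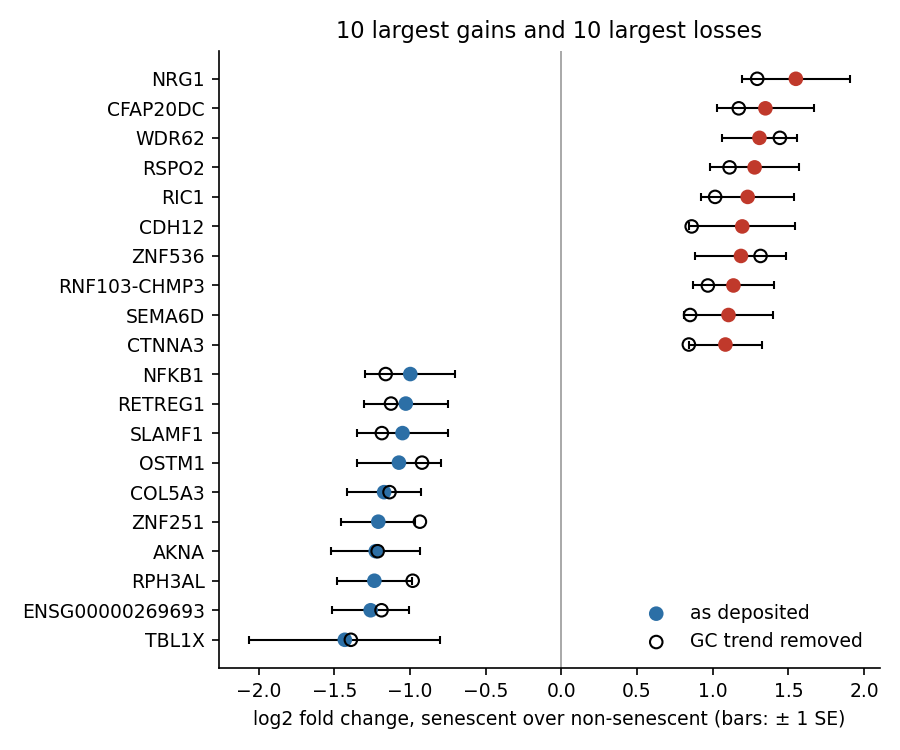
Deposited log2 fold change (senescent over non-senescent, filled points, bars ± 1 SE) of the 10 largest gains and 10 largest losses among called intronic CTCF peaks with a mean count of at least 50, with the value after subtraction of the GC trend (open circles). The gains run from 1.08 to 1.55 and the losses from -0.998 to -1.43, and the TBL1X peak has the widest error.

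Long genes held many of the peaks. Genes over 1000 kb numbered 71 and held 822 intronic peaks, of which 41 were gained (7.12% of those tested, 5.29% to 9.51%) and 16 lost. In genes shorter than 50 kb, 31 peaks were gained (1.90%, 1.34% to 2.69%) and 73 lost. With the GC trend subtracted, 12 were gained and 12 lost in the former and 7 and 40 in the latter. The medians of the log2 fold change were 0.15 and -0.051, and the median GC content was 38.7% and 48.3%. Spearman's rho between host gene length and log2 fold change was 0.14 over the 13556 peaks, 0.054 with the GC trend subtracted. Most host genes, 3252 of 6182, held a single intronic peak, and 10 held at least 20. The genes with the most were CNTNAP2 and DLG2 (25 each) and MACROD2 and PDE4D (22 each). CNTNAP2 had 2 gained peaks and DLG2 had 4, and MACROD2 and PDE4D had none called. Among the genes tied at 20 peaks, GPC5 had none called and RBFOX1 had 4 lost.

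Of the 623 genes with a called intronic peak, 40 had more than 1, and these were all gains in 26 genes, all losses in 7 and mixed in 7. DLG2, a scaffold protein of synapses, held 4 gained peaks of 25, with log2 fold changes of 0.67, 0.78, 0.89 and 0.91, and none lost. AUTS2, a nuclear regulator active in developing neurons, held 3 gained peaks of 6, at 0.69, 0.78 and 0.88, of which a pair lay next to each other in intron 2. RBFOX1, a neuronal splicing regulator, went the other way with 4 lost peaks of 20, at -1.22, -1.20, -1.06 and -0.73, and none gained. ANKS1B, a protein of the postsynaptic density, held 2 gained peaks (0.67 and 0.69) and 2 lost peaks (-1.28 and -1.56), and a gained and a lost one lay in the same intron 17. With the GC trend subtracted, the DLG2 peaks at 0.78 and 0.91, the AUTS2 peak at 0.88 and the RBFOX1 peaks at -1.22, -1.06 and -0.73 stayed called, as did both lost ANKS1B peaks.

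CCDC200 held 14 intronic peaks within 88.5 kb of chromosome 17, and all 14 had a negative log2 fold change, from -1.79 to -0.56. Of the 8 with an adjusted p, 5 were lost, the most of any gene, and 3 stayed lost with the GC trend subtracted. The gene spans a tandem array of 13 genes annotated as U2 snRNA or copies of it, the RNA component of the spliceosome that recognizes the branch point, and 12 of the 14 peaks lay within 250 bp of one. No intronic peak elsewhere did. Since the repeats are near-identical, reads cannot be assigned to a single copy with certainty, and these 14 values are uncertain as independent measurements. A matrix motif was found in 2 of them, and their mean counts were low, from 8.44 to 25.9.

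Gene lists relevant to a beta cell entering senescence were described by their counts. For comparison, 3.74% of all intronic peaks tested were gained and 2.84% lost. Neuronal adhesion and ankyrin genes, many of which are very long, had 493 intronic peaks in 63 of 67 genes. Of the 356 tested, 27 were gained (7.58%, 5.26% to 10.8%) and 5 lost (1.40%), with a median log2 fold change of 0.17. With the GC trend subtracted, 6 were gained and 5 lost. Examples were peaks in NEGR1 (0.70 ± 0.16), ROBO2 (0.87 ± 0.22) and CSMD3 (1.32 ± 0.33), beside the CTNNA3 peak given above. With the trend subtracted, the NEGR1 and ROBO2 peaks were not called and the other 2 were.

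Cell cycle and Rb pathway genes, which include replication and mitosis factors, had 75 intronic peaks in 34 of 89 genes. Of the 61 tested, 5 were gained (8.20%, 3.55% to 17.8%) and 1 was lost, with a median of 0.27. The gained peaks included those in ANLN (anillin, which builds the contractile ring, 0.86 ± 0.19), KIF14 (a kinesin of cytokinesis, 0.59 ± 0.15), MCM10 (an initiator of replication, 0.76 ± 0.19) and PRIM2 (a primase subunit, 0.92 ± 0.24). The ANLN and MCM10 peaks were still called with the GC trend subtracted, as was PRIM2, and KIF14 was not.

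Ion channel genes of the beta cell had 144 intronic peaks, of which 103 were tested, 3 gained and 3 lost. HCN4, a pacemaker channel, and KCNN3, a calcium-activated potassium channel, held lost peaks at -0.93 ± 0.29 and -0.75 ± 0.26. CACNA2D3, an auxiliary calcium channel subunit, held a gained peak at 1.08 ± 0.41. None of these 3 peaks was called with the GC trend subtracted. Exocytosis and granule genes had 75 tested peaks, 2 gained, both in ERC2, an active-zone scaffold (0.89 ± 0.20 and 0.80 ± 0.22), and 2 lost, in PTPRN2, a granule membrane protein (-0.73 ± 0.19), and in RPH3AL. The PTPRN2 peak was not called with the GC trend subtracted.

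Islet transcription factor and diabetes locus genes had 96 tested peaks, 4 gained and 1 lost, the last in the single intron of ONECUT1, a hepatic and pancreatic transcription factor (-1.15 ± 0.35, adjusted p 0.038). TSPAN8, ANKRD55 and PTPRD held gained peaks at 0.88 ± 0.22, 0.65 ± 0.17 and 0.75 ± 0.25, of which the PTPRD peak was not called with the GC trend subtracted. Among chromatin and architecture genes 101 peaks were tested, 2 were gained, in NIPBL (the cohesin loader, 0.67 ± 0.20) and STAG1 (a cohesin subunit, 0.92 ± 0.41), and 1 was lost, in the histone deacetylase gene HDAC4 (-0.92 ± 0.39). None of these 3 was called with the GC trend subtracted.

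Distance from start sites was described in bands. The 662 peaks 1 to 2 kb from a start site that met every other condition, just outside the class, had a median log2 fold change of -0.039, with 8 gained and 23 lost. The 584 peaks 2 to 3 kb away, just inside it, had a median of 0.0066, with 23 gained and 20 lost. The median GC content was 47.5% and 45.4%. With the GC trend subtracted, 5 were gained and 11 lost in each of these bands. Beyond 50 kb the median was 0.13 and 146 peaks were gained and 62 lost, at a median GC content of 40.7%. There, 45 were gained and 51 lost once the GC trend was subtracted. Of the peaks in canonical introns, 17.7% lay in the first intron and 8.44% in the last. In all, 16.6% of the intronic peaks lay within 2 kb of the start of some other annotated transcript, and without them 325 were gained and 242 lost. The centre was in an intron of the canonical transcript of the longest host gene in 85.7%, and the rest lay in parts of the gene that this transcript does not span. With an edge, 15.8% of the peaks reached into a canonical exon.

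An H3K27ac peak centre lay within 10 kb of 4177 intronic peaks (30.8%). Over these, Spearman's rho between the 2 log2 fold changes was 0.067 (Pearson's r 0.074). Where the nearest H3K27ac peak was gained, 10 of 293 tested CTCF peaks were gained and 3 lost. Beside a lost H3K27ac peak, 10 of 427 were gained and 18 lost. In the 7184 tested peaks with no H3K27ac peak centre within 10 kb, 290 were gained and 222 lost. A region listed as bound by Rb in senescent cells was overlapped by 9 of the 13556 intronic peaks (0.066%). The count was 29 of 17509 intergenic peaks, 85 of 11061 promoter peaks and 147 of all 51457 CTCF peaks.

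A separate set of intronic peaks stood out by its error. At a mean count of at least 30, 152 peaks had a standard error above 1, whereas the other 8499 peaks of that height had a median of 0.21. All 152 had a log2 fold change between -3.59 and -1.80, with a median of -2.36, and none was called (deposited DESeq2 Wald test). Their unadjusted p-values were at or above 0.083, so 0 were under 0.05. Their median GC content was 18.2%, and 105 of them had less than 25% GC. The tallest of all lay in LRCH2 on the X chromosome (115125404 to 115125651), with a mean count of 2515 and a log2 fold change of -1.92 ± 1.49. Only 2 of the 152 held a matrix motif, a share of 1.32%. The whole table held 511 such peaks, 335 of them intergenic. With no value per library, which libraries carried these reads cannot be seen.

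**Figure D5:**
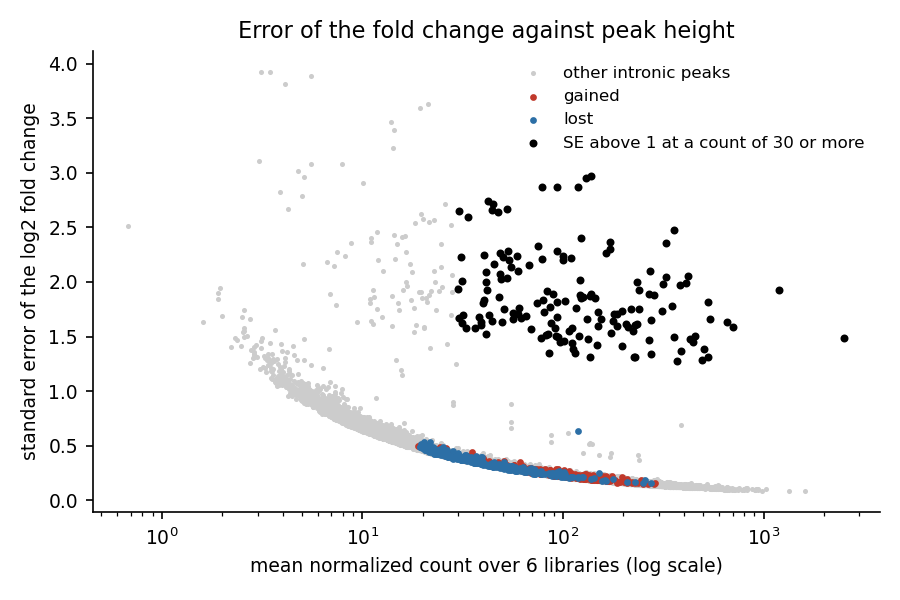
Standard error of the deposited log2 fold change against the mean normalized count (log scale) of each intronic CTCF peak. The error falls as the count rises along the main curve, on which the called peaks lie except the lost TBL1X peak (0.63 at a count of 118), and the 152 peaks with a standard error above 1 at a count of 30 or more (black) lie above it.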

How the data were processed

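ChIP-seq of CTCF had been performed in 3 non-senescent and 3 senescent EndoC-βH3 libraries, grouped here from the labels. The authors aligned the reads to hg38 with Bowtie2, called peaks with MACS2 against input, and compared read counts in peaks with DESeq2, whose Wald test with Benjamini-Hochberg adjustment gave the deposited p-values. Tool versions and the way replicates were merged are not given in the sources used here. The deposited signal is the mean over libraries of counts divided by size factors, and the deposited log2 fold change is senescent over non-senescent. The files hold 0 columns of values per library, so depth per library is unknown, the planned edgeR test could not be fitted, and the authors' own fold changes and p-values were used as deposited. Their motif filter was not repeated, and the deposited table also holds peaks without a match to the motifs searched here. The H3K27ac table and the 3 lists of regions give positions, the first also fold changes.

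Peaks and annotation were overlapped by at least 1 bp with Python 3.11.15, pandas 2.3.3 and NumPy 2.4.6, and sequences were read with pysam 0.24.0. The matrix was built from 8027 windows with 1 exact core outside the intronic class and rebuilt from the 5000 strongest such peaks. The GC trend was the median log2 fold change in 500 bins of GC content over all CTCF peaks, and the remainder was divided by the deposited standard error and adjusted over the same peaks. The subtraction was tried on simulated data with a straight-line GC trend, in which peaks with a standard error of 1 or more were left out. How it performs on a trend of another shape or on such peaks was not tested. Shares carry 95% Wilson intervals. The intronic class, the 6 gene lists and the tests were chosen with earlier results of these data known. Named were the 10 largest gains and losses at a mean count of at least 50, the 3 smallest adjusted p-values each way, the 5 genes with most and with most called peaks, and up to 4 called peaks per list. Sequences were printed for at most 8 of these, none from chromosome 8. Some of these items are not reported here.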

Additional observations from a re-analysis of the deposited data

How the results depend on the processing

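Against 383 gained and 291 lost intronic peaks, an adjusted p under 0.05 gave 135 and 76, a fold change above 2 gave 59 and 116, and the absence of a fold threshold gave 867 and 398. Gains were 33.7% of the changed peaks at a fold change above 2 and 68.5% without a fold threshold, and 20.7% and 50.8% over all CTCF peaks. A test against a fold change of 1.5 left 0 and 0 after adjustment, with 16 and 24 at an unadjusted p under 0.05. Subtraction of the GC trend gave 124 and 184, of which 105 and 153 were among the peaks called before. A mean count of at least 50 gave 293 and 115, and gains were then 71.8%, and 51.8% over all CTCF peaks. Peaks with an exact core alone gave 88 and 78. Adjustment of the deposited p-values over all peaks gave 355 and 321, and the 4 other definitions of the class gave 325 to 377 gained and 237 to 278 lost. The restriction to peaks with a matrix motif was chosen after seeing the data and gave 279 and 214. The median log2 fold change ran from -0.0018 to 0.13. The share of peaks with an exact core was 24.0% when peaks touching an exon were left out and 18.0% within 100 bp of the centre, and 66.6% held the matrix motif, and it has no value among peaks chosen for the core. Of the 64 named peaks, 42 stayed called without the GC trend and 45 at an adjusted p under 0.05. None of the 64 was called in the test against a fold change of 1.5. The other settings use the deposited fold change as it stands, so only subtraction of the GC trend could have reversed a direction, and it reversed none. No paired analysis was possible because the files hold no values per library, and leaving out single libraries was not run for the same reason.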
